A study of Rattus norvegicus with 54 samples.

Results

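The genes described here build cholesterol and fatty acids, together with the factors that regulate that synthesis. A list of 32 gene names was looked up by symbol, or by gene identifier where the array carried an older symbol, and the brightest probe set of each gene was used. Of these names, 29 had a probe set and 3 (Mvk, Srebf1 and Fasn) were not analysed here. The array's symbols Scd1 and Scd carry the gene identifiers that RefSeq now calls Scd and Scd2, and both were kept under the RefSeq names, so that 30 genes were followed, among 27342 main probe sets of the array. The arrays profiled RNA of Dark Agouti rats, either naive, meaning healthy, or with EAE (experimental autoimmune encephalomyelitis), an inflammatory disease induced in animals as a model of multiple sclerosis. Neural progenitor cell (NPC) cultures were grown from the subventricular zone (SVZ), a germinal zone beside the forebrain ventricles, and from the cervical, thoracic and caudal spinal cord. Each culture type was profiled undifferentiated, after the second passage, and differentiated, after 5 days. Uncultured SVZ tissue was taken as biopsies. This gave 18 groups of 3 arrays, 54 in all. Separate animals or cultures are not named in the labels for the arrays of a group, so a p-value here reflects the spread between these arrays alone, which may be technical. The labels give neither the age of the rats nor the way EAE was induced.

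Cholesterol is made from acetyl-CoA in a chain of steps. The mevalonate pathway yields farnesyl diphosphate, which also feeds protein prenylation, and the sterol branch turns squalene into lanosterol and then cholesterol. Most genes of the chain are known targets of the SREBP transcription factors. SCAP escorts these out of the endoplasmic reticulum when membrane sterol is low, and the INSIG proteins hold them back when it is high. In the central nervous system cholesterol is largely made locally, and myelinating oligodendrocytes are known for a high rate of synthesis. The fatty acid members make palmitate precursors (Acly, Acaca), lengthen fatty acids (Elovl6), or introduce double bonds into saturated (Scd, Scd2) or polyunsaturated chains (Fads1, Fads2).

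Promoters of 5 members are shown because these genes moved in opposite directions between differentiated spinal cord and SVZ cultures: Hsd17b7, Idi1 and Insig1 were higher in cord cultures, and Fads1 and Fads2 were lower. The sequences are RefSeq's for assembly GRCr8, run 5′ to 3′ toward the gene, and stop before the annotated gene begins. Capitals mark CCAAT or its reverse complement, the core of the site of NF-Y, a partner of the SREBPs, and CACGTG, an E-box that SREBPs can also bind.
Hsd17b7, chr13:84722811-84723004, minus strand: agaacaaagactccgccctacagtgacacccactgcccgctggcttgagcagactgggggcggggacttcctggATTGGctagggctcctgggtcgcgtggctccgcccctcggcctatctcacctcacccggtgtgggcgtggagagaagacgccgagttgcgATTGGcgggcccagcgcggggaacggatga
Idi1, chr17:66547525-66547774, minus strand: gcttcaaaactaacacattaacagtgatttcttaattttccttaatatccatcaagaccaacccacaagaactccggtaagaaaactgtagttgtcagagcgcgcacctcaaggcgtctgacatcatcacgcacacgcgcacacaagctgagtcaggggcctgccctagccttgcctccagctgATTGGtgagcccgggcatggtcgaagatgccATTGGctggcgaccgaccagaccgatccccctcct
Insig1, chr4:8057813-8058019, minus strand: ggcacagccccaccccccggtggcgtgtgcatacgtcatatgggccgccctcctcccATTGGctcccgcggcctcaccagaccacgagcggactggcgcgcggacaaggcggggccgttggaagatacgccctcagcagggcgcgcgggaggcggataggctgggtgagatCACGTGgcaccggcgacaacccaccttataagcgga
Fads1, chr1:216252442-216252604, plus strand: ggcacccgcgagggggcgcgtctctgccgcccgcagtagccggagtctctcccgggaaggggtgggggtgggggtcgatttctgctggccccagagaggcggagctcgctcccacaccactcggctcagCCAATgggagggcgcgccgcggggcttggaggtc
Fads2, chr1:216172191-216172283, minus strand: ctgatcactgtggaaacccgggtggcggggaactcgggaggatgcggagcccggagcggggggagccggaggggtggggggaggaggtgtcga
The full window searched was the first 250 bases of each promoter entry, and 24 members had an entry. By its coordinates this window lay wholly inside the annotated gene for Srebf2, Hmgcs1, Acly, Insig2 and Scd. For others, such as Hsd17b7 and Fads2, it lay partly inside, so some counted sites are not upstream of the gene. CCAAT, searched on both strands, stood in 18 of these 24 windows (75%), against 34.0% of all 33469 promoter windows of that length. No filter on gene type or on repeated entries of a gene was applied to all windows, whereas each member entered with its first entry only. The members and all windows are thus not sets built alike. Hsd17b7 held 3 in the window, of which the printed part shows 2, and Fads2 held none. CACGTG stood in 3 of 24 windows (12.5%), against 5.59% of all. The letters TCACNCCAC, a strict form of the sterol regulatory element on either strand, stood in none of the 24 windows and in 0.974% of all, which says only that these letters are not in these windows.

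All 30 genes had a signal above 50 on every one of the 54 arrays, so no member was lost to the filter on low signals in any comparison. Arrays differed in overall brightness, with median signals over the main probe sets of 51.6 to 120.1, and the number of arrays limits the precision. Of the 54 arrays, 6 correlated below 0.96 with every other array of their group: cervical naive replicate 3 and thoracic naive replicate 2 among the undifferentiated cultures, SVZ naive replicate 3 among the differentiated ones, and all 3 differentiated thoracic naive arrays. Undifferentiated cultures carried the neural progenitor markers Nes, Sox2, Egfr and Vim at mean log2 levels of 11.40 to 11.61 in SVZ and 8.87 to 10.02 in cord cultures. Differentiated cultures had 10.47 to 10.86 in SVZ and 7.78 to 9.67 in cord, so the cord ranges of both stages overlapped. Signals are linear; log2 differences are on log2(signal + 16), which understates the change of dim genes. In bulk RNA, fewer cells of a type and less RNA per cell cannot be told apart.

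The probe sets of 5 members reached far beyond the annotated gene: they spanned 77.3 kb against 10.1 kb of RefSeq gene for Mvd, 34.7 kb against 7.76 kb for Idi1, 20.4 kb against 9.62 kb for Fdps, 71.3 kb against 15.3 kb for Stard4 and 159 kb against 39.9 kb for Fads2. Probes of these sets may therefore read neighbouring transcripts, and the probe sets of Fads2 and its neighbour Fads3 and of Fdps and its neighbour Rusc1 could not be separated here. Fads1 lies 80415 bases from Fads2 on the other side, and whether the Fads2 probe set also reaches Fads1 was not examined. In RefSeq, Wdr37 overlaps Idi1. The probe set of Ggps1 was clearly shorter than its gene. The probe set of Acat2 was annotated as cross-hybridising, as was the dimmer of the 2 Insig1 probe sets.

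Across the 16 culture groups the genes did not form a single block. Against the mean of the sterol branch, leaving the gene itself out, Pearson's r over the 16 group means exceeded 0.5 for 19 of 30 genes. These included Idi1, the isomerase that makes the second isoprene unit (0.971), Elovl6, the elongase of palmitate (0.975), and Insig1 (0.81). It lay below -0.5 for 4 genes: Fads1 (-0.843), Fads2 (-0.789), Scd (-0.744) and Scap (-0.681). Dhcr7, which carries out the final reduction to cholesterol, stood apart from the rest of its branch at 0.122. These are descriptions over group means that share arrays, scaling and culture conditions. The 19 genes include every sterol branch gene but Dhcr7. How many of all probe sets reach such r was not computed, so these counts do not show that the members stand out. The highest and the lowest culture group mean differed by 0.50 log2 units for Scd2, the steadiest of the 30 genes, and by 3.18 for Fads1, the most variable.

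**Figure D1:**
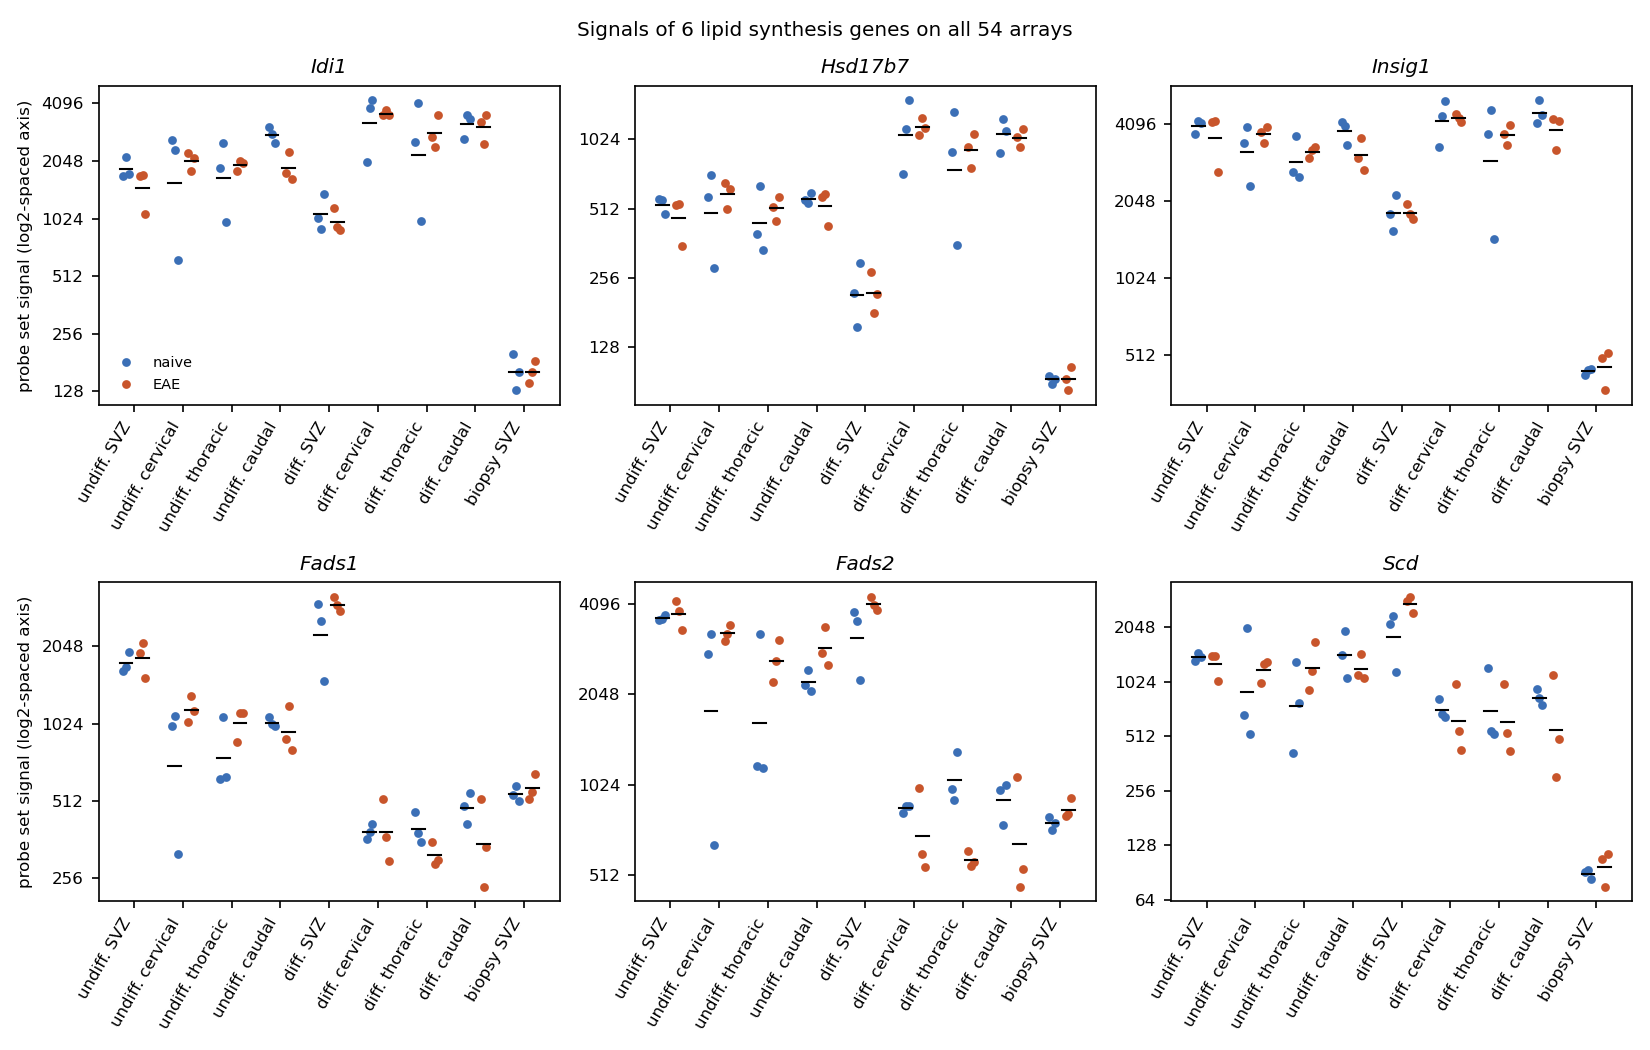
Signals of Idi1, Hsd17b7, Insig1, Fads1, Fads2 and Scd on all 54 arrays; the y axis is log2-spaced, each point is 1 array, blue is naive and orange EAE, and black lines are means of log2 signals. Idi1, Hsd17b7 and Insig1 stand higher in differentiated cord than in differentiated SVZ cultures, Fads1 and Fads2 stand lower there, and Idi1, Hsd17b7, Insig1 and Scd are lowest in the biopsies.

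The first comparison set SVZ tissue against the cultures grown from the same zone. In the biopsies nearly the whole synthesis chain stood at a lower level than in culture: against undifferentiated cultures 27 of 30 genes were lower and 1 was higher, and against differentiated cultures 26 were lower and 1 was higher. A gene counted as called, and as higher or lower, when limma's p, adjusted over all probe sets tested, was at most 0.05 and its fold at least 1.2. Of all probe sets tested, 41.7% were lower and 37.3% higher against undifferentiated cultures (79% in either direction), and 39.6% lower and 34.4% higher against differentiated cultures (74% in either direction). The median log2 difference of the 30 genes was -1.70 and -1.35, against -0.04 and -0.03 for all probe sets tested. The 2 comparisons share the 6 biopsy arrays.

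The largest fall among the members was that of Scd, the stearoyl-CoA desaturase. Its signal was 91.1, 93.3 and 83.0 in the naive biopsies and 107, 75.4 and 114 in the EAE biopsies. In SVZ cultures it ranged from 1038 to 1479, with a median of 1405, over 6 undifferentiated arrays, and from 1152 to 3002, with a median of 2398, over 6 differentiated ones. All 6 biopsies lay below all 12 SVZ cultures, at a log2 difference of -3.63 ± 0.15, adjusted p = 4.08e-13 against undifferentiated and -4.36 ± 0.15, adjusted p = 4.41e-14 against differentiated cultures. Its close relative Scd2, the main brain form in rodents, fell less, by 1.20 and 1.21 on the log2 scale.

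In the mevalonate pathway, Idi1 had signals of 201, 129.6 and 161 in naive and 142.1, 162 and 184 in EAE biopsies, against 1707, 2150.5 and 1754 in undifferentiated naive SVZ cultures. The groups were far apart, with a log2 difference of -3.23 ± 0.14, adjusted p = 8.52e-13. Acat2, which condenses acetyl-CoA (-2.80), and Hmgcs1, which makes HMG-CoA (-2.38), were lower too, and Mvd (-1.52), Pmvk (-0.78) and Ggps1 (-0.40, a call lost under 75th percentile scaling) fell less. All 11 sterol branch genes were lower against both kinds of culture, with log2 differences against undifferentiated cultures from Dhcr7 (-2.38) and Sqle, squalene epoxidase (-2.36), to Ebp, a sterol isomerase (-0.98). Insig1, the sterol-responsive retention factor, fell to signals of 429, 450.0 and 450.2 in naive biopsies from 3748, 4213 and 4144 in undifferentiated naive cultures, a log2 difference of -3.04 ± 0.12, adjusted p = 1.86e-13. Its second probe set, annotated as cross-hybridising, gave a like picture, and replacing the brightest probe set by the mean of both changed no count of calls here. Insig2, the constitutive relative of Insig1, was not called in any of the 22 comparisons as analysed here, though other settings called it in some.

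Fdps, farnesyl diphosphate synthase, went the other way. Its signal was 2364, 2183 and 2189.7 in naive and 1907, 2384 and 2405 in EAE biopsies, and it ranged from 265 to 362, with a median of 310.0, in undifferentiated SVZ cultures. All biopsies lay above all cultures, at a log2 difference of 2.80 ± 0.08, adjusted p = 4.64e-15 against undifferentiated and 2.69 ± 0.08, adjusted p = 1.03e-14 against differentiated SVZ cultures. Its probe set is one of the 5 that reach far beyond the gene, by 20.4 kb against 9.62 kb, and the part of those outlying probes in this value was not tested. The tissue also differed from the cultures in its cells: all 6 neuron markers and all 5 cycling markers were called, the former higher (median 5.39 log2 against undifferentiated cultures) and the latter lower (-2.37), and 9 of 10 myelinating oligodendrocyte markers were higher. The part of cell composition in the lower lipid gene signals was not tested.

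**Figure D2:**
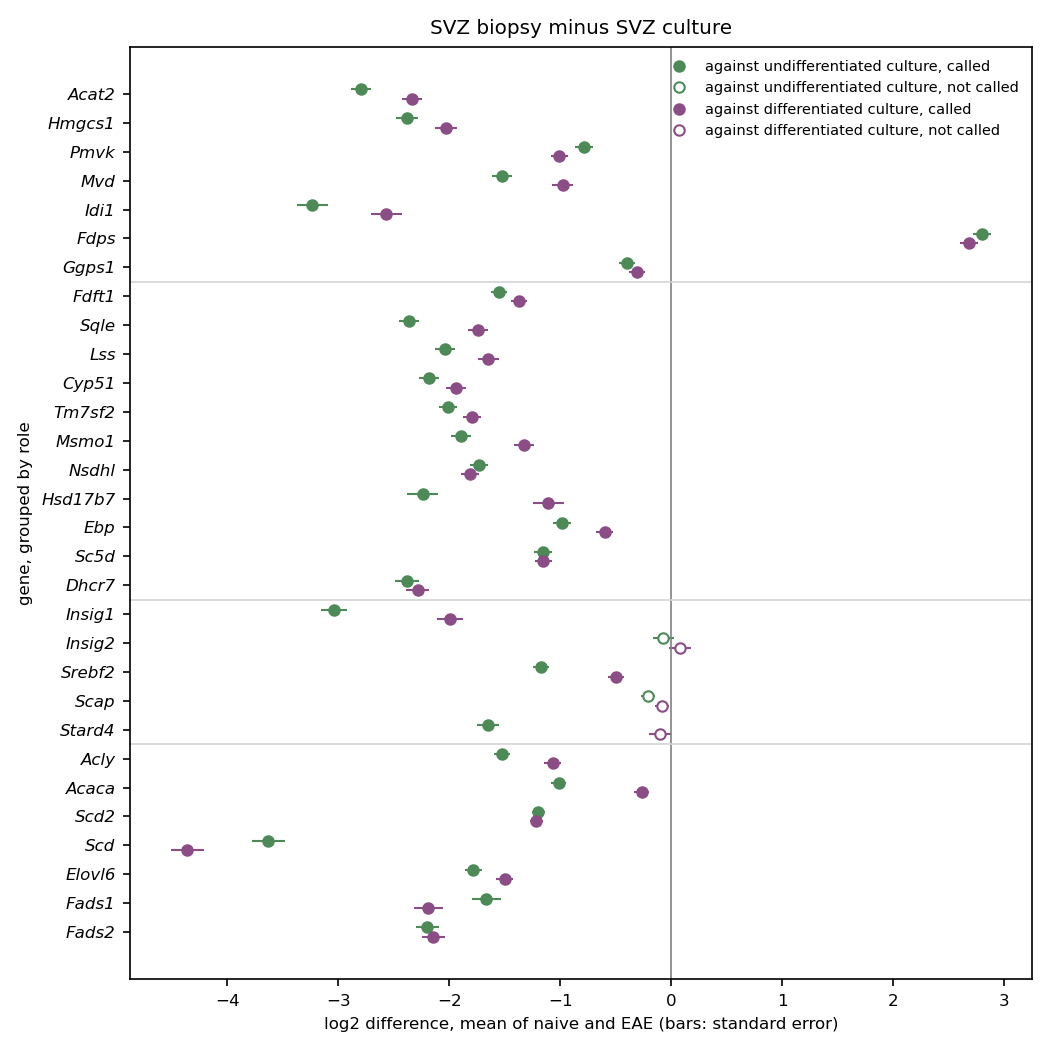
Log2 differences of the 30 genes between SVZ biopsies and SVZ cultures, with standard errors as bars; green compares with undifferentiated and purple with differentiated cultures, and filled points were called. All genes but Fdps and, against differentiated cultures, Insig2 lie left of 0 (27 and 26 called lower), and Fdps stands alone near 2.80 and 2.69.

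The second comparison asked how differentiated spinal cord cultures differ from differentiated SVZ cultures, taking the mean of the 3 cord regions. The sterol branch stood higher in cord and the desaturases of polyunsaturated chains stood lower, in naive and in EAE cultures alike. In naive cultures 13 of 30 genes were higher and 3 lower, where 6.43% of all probe sets tested were higher and 16% lower (22.5% in either direction). In EAE cultures 18 were higher and 4 lower, against 17.4% and 43.9% of all probe sets tested (61.3% in either direction). The EAE split was 25 to 3 after quantile normalization and 26 to 3 after 75th percentile scaling, which moved the median of all probe sets from -0.21 to 0.13 and 0.25 log2. Both added Fdps, Ggps1, Dhcr7, Insig2, Stard4, Acly and Acaca to the higher calls. Here and below, shares of all probe sets are for the signals as deposited and all arrays of a comparison. Shares under other scalings or with arrays or replicate numbers left out are not given. Counts of members from those runs therefore do not show whether the members or the whole array gained or lost calls. The median of the members was 0.74 and 0.62 log2, against -0.06 and -0.21 for all probe sets. The naive count rests on all 3 replicate numbers: it was 3 without replicate 1, 2 without replicate 2 and 18 without replicate 3, with Fads1 and Fads2 lower in each, whereas the EAE count stayed between 20 and 22.

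Within the sterol branch 9 of 11 genes were higher in naive cord cultures and 10 of 11 in EAE ones. Hsd17b7, the ketosteroid reductase of sterol demethylation, differed most. In naive SVZ its signal was 219, 156 and 297, and over the 9 naive cord arrays it ranged from 355 to 1512, with a median of 1117. In EAE it was 270.3, 179 and 218 in SVZ, and it ranged from 769.8 to 1264, with a median of 1071, in cord. No cord array overlapped the SVZ arrays of its own disease state, and the differences were 2.07 ± 0.36, adjusted p = 0.00205 in naive and 2.16 ± 0.13, adjusted p = 1.72e-09 in EAE cultures. Ebp (1.31 naive, 1.34 EAE), Sc5d, the sterol desaturase before Dhcr7 (1.30, 1.26), the sterol reductase Tm7sf2 (1.29, 1.43), lanosterol synthase Lss (1.23, 1.25) and Sqle (1.23, 1.09) were higher in both, as were Cyp51, Msmo1 and Nsdhl. Squalene synthase Fdft1 was called higher in EAE only (0.72; naive 0.80 ± 0.31, adjusted p = 0.0929). Dhcr7 was called in neither, at 0.22 ± 0.33, adjusted p = 0.715 in naive and -0.06 ± 0.10, adjusted p = 0.613 in EAE cultures, where it was called higher under both other scalings (0.29 and 0.42).

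Idi1 led the mevalonate genes. Its signal in differentiated EAE SVZ cultures was 1166, 927 and 889, and in EAE cord it was 3561, 3760.5 and 3539.9 for cervical, 2731, 2429 and 3561 for thoracic and 3257, 2505 and 3578 for caudal cultures. Every EAE cord array exceeded every EAE SVZ array (1.67 ± 0.14, adjusted p = 5.56e-08). In naive cultures SVZ gave 1030.4, 907 and 1377, and cord ranged from 996 to 4239, with a median of 3409. There thoracic replicate 3, the lowest cord array, fell within the SVZ values, and the difference was 1.36 ± 0.37, adjusted p = 0.0214. Acat2 was higher in both states (0.95 and 0.85), and Hmgcs1 (0.46), Pmvk (0.61) and Mvd (0.63) were called in EAE cultures only, at naive values of 0.42, 0.39 and 0.75. Under both other scalings Mvd, Fdft1 and Srebf2 were called higher in naive cultures too, and the EAE call of Hmgcs1 was lost without replicate 1. Whether naive and EAE differences differ from each other was not tested.

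Among the regulators, Insig1 was higher in cord in both states, by 1.05 ± 0.30 and 1.10 ± 0.11 log2. Its differentiated naive SVZ signals were 1822, 1572 and 2175, and the naive cord arrays ranged from 1455 to 5081, with a median of 4432, with thoracic replicate 3 below the SVZ arrays and the other 8 above them. Srebf2, which encodes the SREBP that mainly drives sterol genes, was called higher in EAE cultures (0.36 ± 0.10, adjusted p = 0.00482). This call was lost without replicate 1. Scap, the escort of the SREBPs, was lower there (-0.66 ± 0.10, adjusted p = 5.24e-05), a call lost after quantile normalization (-0.24, a fold under 1.2) and after 75th percentile scaling (-0.19). In naive cultures they stood at 0.56 ± 0.27 and -0.28 ± 0.12 log2, neither called. Stard4, a sterol carrier, was called in neither (0.10 and 0.05), but was called higher in EAE cultures under both other scalings.

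The fatty acid members split. Fads1, the desaturase that completes arachidonic and eicosapentaenoic acid, had signals of 3011, 2575 and 1499.5 in naive SVZ cultures. Its 9 naive cord arrays ranged from 353 to 551, with a median of 415. In EAE the SVZ signals were 3192, 2965 and 2806, and the cord arrays ranged from 237 to 524, with a median of 339. In both states the groups were widely separated, at -2.38 ± 0.20, adjusted p = 1.74e-05 in naive and -3.04 ± 0.19, adjusted p = 2.87e-09 in EAE cultures. Fads2, which introduces the first additional double bond of that route, was 3856, 3603 and 2285 in naive SVZ cultures, against a range from 753 to 1316, with a median of 908, in naive cord cultures. Again no array overlapped (-1.74 ± 0.18, adjusted p = 8.5e-05 naive; -2.66 ± 0.21, adjusted p = 4.46e-08 EAE). Fads1 and Fads2 lie beside each other on the chromosome with Fads3, and the long Fads2 probe set may read more than Fads2.

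Scd fell with them, by 1.24 in naive and 2.19 in EAE cord on the log2 scale. In naive cultures thoracic replicate 1, at 1217, lay above the lowest SVZ array, at 1152. Its EAE cord signals were uneven: replicate 1 of each region was the highest (cervical 997, 549 and 429, thoracic 994, 535 and 425, caudal 1107, 306 and 493 for replicates 1 to 3). All 9 lay below the SVZ signals of 2857, 3002 and 2439.8. Elovl6 stood higher in cord, by 1.37 ± 0.42, adjusted p = 0.0399 in naive and 1.19 ± 0.12, adjusted p = 5.14e-07 in EAE cultures. The naive Elovl6 call was lost without the signal filter and without replicate 1 or 2. Scd2 (-0.07 and -0.19), Acly (0.39 and 0.07) and Acaca (0.74 and 0.05) were called in neither. Under both other scalings Acaca was called higher in naive and EAE cultures and Acly in EAE cultures, and Scd2 was called higher in EAE cultures after 75th percentile scaling (0.29). 

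The cord and SVZ cultures also differed in their cells. All 10 myelinating oligodendrocyte markers were higher in differentiated cord cultures (median 3.62 log2 in naive and 3.59 in EAE), with mean levels per array of 10.61 to 12.52 in cord and 7.60 to 10.89 in SVZ, ranges that overlap through thoracic naive replicate 3 and SVZ naive replicate 3. Astrocyte markers were lower in cord (3 of 5 called in naive and 5 of 5 in EAE cultures), as were progenitor markers (3 and 4 of 4). The part of these cell types in the lipid gene differences was not tested.

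**Figure D3:**
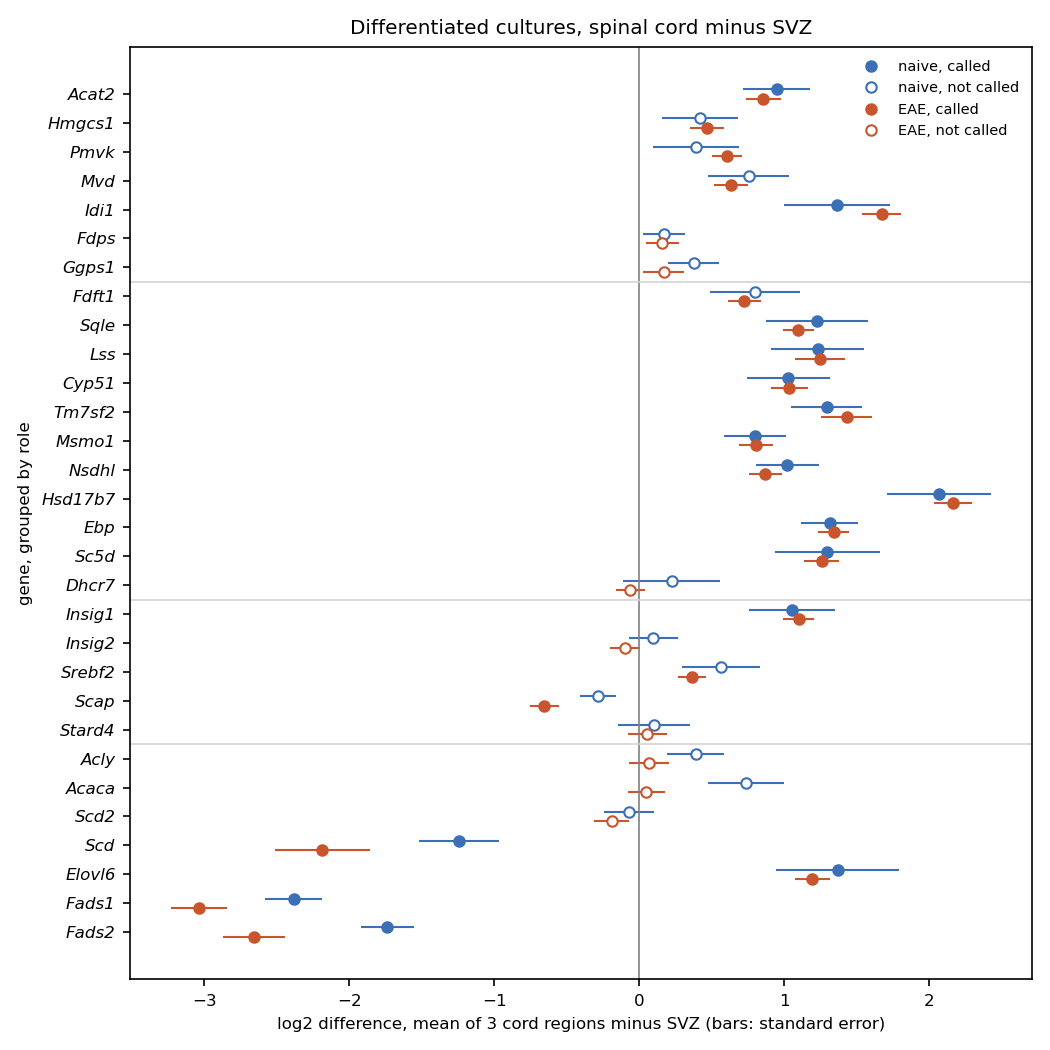
Log2 differences of the 30 genes between differentiated cord cultures (mean of 3 regions) and differentiated SVZ cultures, with standard errors as bars; blue is naive, orange is EAE, and filled points were called. Sterol branch genes lie to the right except Dhcr7, near 0 at 0.22 and -0.06, and are led by Hsd17b7 near 2.07 and 2.16, whereas Fads1, Fads2 and Scd lie to the left, with Fads1 at -2.38 and -3.04.

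In undifferentiated cultures fewer members were called. Between naive cord and SVZ progenitors, 3 genes were higher (Ebp, 0.64; Pmvk, 0.55; Fdps, 0.45) and 2 lower (Fads1, -1.09; Scap, -0.33), where all probe sets gave 12.2% higher and 10.6% lower (22.9% in either direction). Both scalings gave 3 higher and 1 lower, and leaving out 1 replicate number brought the count to between 0 (without replicate 1) and 2 (without replicate 3). Between EAE cord and SVZ progenitors 12 were higher and 6 lower, against 18.5% and 29.2% of all probe sets (47.7% in either direction). The split was 18 to 4 after quantile normalization and 17 to 4 after scaling to the 75th percentile.

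Dhcr7, not called between differentiated cord and SVZ cultures, was among the largest differences in EAE progenitors. Its signal was 1002, 975 and 681 in EAE SVZ, 1757, 1843 and 2099 in cervical, 1511, 1726 and 1586 in thoracic and 1752, 1727 and 1601 in caudal EAE progenitors. All 9 cord arrays exceeded the 3 SVZ arrays (0.97 ± 0.12, adjusted p = 1.03e-05). Tm7sf2 (1.08), Acat2 (0.76), Pmvk (0.56) and Lss (0.55) were also higher, and Fads1 (-0.81), Scap (-0.65), Stard4 (-0.59) and Acaca (-0.52) were lower. The Stard4 call was lost without replicate 1 and the Lss call without replicate 3. Fads1 alone of the 30 genes was called in all 4 cord and SVZ contrasts, each time lower in cord. All 10 myelinating oligodendrocyte markers were higher in cord progenitors as well (median 3.23 in naive, 2.84 in EAE), and in EAE progenitors 8 of 8 microglia and macrophage markers and 7 of 8 fibroblast markers were higher too. Their part was not tested.

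The third comparison followed differentiation itself. In SVZ cultures, taking naive and EAE together, falls outnumbered rises: 15 of 30 genes were lower after differentiation and 2 higher, where 27.2% of all probe sets tested were lower and 23.8% higher (51% in either direction). The median of the members was -0.26 log2, against -0.0046 for all probe sets. Stard4 fell most. Its naive signals were 380.1, 353 and 376 before and 127.5, 119 and 97.7 after differentiation, and its EAE signals were 408, 394 and 276 before and 127.4, 90.3 and 119 after. The ranges were well apart in both states (-1.55 ± 0.10, adjusted p = 8.9e-10). Hsd17b7 went from 562, 556 and 485 to 219, 156 and 297 in naive SVZ cultures, also without overlap (-1.13 ± 0.14, adjusted p = 2.21e-06). Insig1 (-1.04), Acaca, the acetyl-CoA carboxylase (-0.75), Srebf2 (-0.68), Idi1 (-0.67) and Sqle (-0.62) were lower as well. Scd (0.73 ± 0.15, adjusted p = 0.000422) and Fads1 (0.52 ± 0.13, adjusted p = 0.00288) were the 2 that rose. The Fads1 call was lost without replicate 1 (0.39) and without replicate 2 (0.51).

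Whether the effect of differentiation differed between cord and SVZ was tested in naive cultures, on arrays that the contrasts above share. Members called were 2 higher and 1 lower, where 2.48% of all probe sets were higher and 6.01% lower (8.48% in either direction), with 7 and 1 under either scaling. Before differentiation, naive Hsd17b7 signals in cord ranged from 283 to 719, with a median of 559; after it, they ranged from 355 to 1512, with a median of 1117. Set against its fall in SVZ, the difference was 2.16 ± 0.46, adjusted p = 0.00551. Insig1 differed in the same direction (1.34 ± 0.35, adjusted p = 0.0232) and Fads1 in the opposite one (-1.29 ± 0.39, adjusted p = 0.0465). Naive Fads1 signals in cord ranged from 317 to 1096, with a median of 1003, before and from 353 to 551, with a median of 415, after differentiation, whereas in naive SVZ they were 1649, 1709 and 1949.9 before and 3011, 2575 and 1499.5 after. No gene was called without replicate 1 or without replicate 2, and 7 were called without replicate 3. Idi1 (1.30 ± 0.57, adjusted p = 0.178) and Fads2 (-0.78 ± 0.51, adjusted p = 0.378) were not called.

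Averaged over the 4 regions, differentiation of naive cultures left 2 genes higher and 3 lower, where 6.64% and 26.8% of all probe sets were (33.5% in either direction). The split was 8 to 3 after quantile normalization and 10 to 3 after scaling to the 75th percentile. Nsdhl, a sterol dehydrogenase (0.56 ± 0.13, adjusted p = 0.00254), and Sc5d (0.57 ± 0.19, adjusted p = 0.0265) rose, and Stard4 (-0.81), Fads2 (-0.80) and Fads1 (-0.61) fell. Of these, Nsdhl was called whichever replicate number was left out, while the count ranged from 1 (without replicate 1) to 7 (without replicate 3). In EAE cultures 8 genes rose and 8 fell, against 18.1% and 34.1% of all probe sets (52.1% in either direction), with 14 to 6 and 16 to 5 under the 2 scalings. The 5 genes called in naive cultures were called in the same direction there, led by Fads2 (-1.61 ± 0.11, adjusted p = 3.5e-11), Stard4 (-1.06) and Sc5d (0.74). Srebf2 (-0.55), Dhcr7 (-0.63), Acly, which makes cytosolic acetyl-CoA (-0.43), and Mvd (-0.40) fell too; the Mvd call was lost under both scalings and the Acly call under 75th percentile scaling. Within the sterol branch 6 of 11 rose and 1, Dhcr7, fell. All 5 cycling markers fell with differentiation in both states, and myelinating oligodendrocyte markers rose (4 of 10 in naive and 9 of 10 in EAE cultures). Their part was not tested.

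The comparison named in the study's design text set EAE against naive cultures of the same region and stage, with 6 arrays each. Only 3 of the 30 genes were called in any of the 9 pairs, all in undifferentiated caudal cultures: Dhcr7 was higher in EAE, and Idi1 and Sc5d were lower. Of all probe sets tested there, 3.32% were higher and 13.9% lower (17.2% in either direction), and the members' median of -0.16 log2 lay beside -0.14 for all probe sets. Dhcr7 signals in caudal progenitors were 971, 1088 and 1086 in naive and 1752, 1727 and 1601 in EAE cultures, without overlap (0.68 ± 0.13, adjusted p = 0.00637). Sc5d went from 2354, 2207 and 1989.8 in naive to 1327, 1615 and 1312 in EAE cultures, again without overlap (-0.62 ± 0.15, adjusted p = 0.0161). Idi1 was 3065, 2822 and 2528 in naive and 1777, 2267 and 1643 in EAE cultures (-0.57 ± 0.16, adjusted p = 0.0336). Thus 2 enzymes of neighbouring steps, Sc5d and Dhcr7, moved in opposite directions on the same arrays.

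Dhcr7 was called with each caudal array left out in turn. Sc5d was not called without EAE replicate 1 (-0.58), without EAE replicate 3 or without naive replicate 1. Idi1 was called in the full set and, among these runs, without EAE replicate 2 only. In a limma fit of all 18 groups none of these 3 genes was called. Adjusted p there was 0.318 for Dhcr7, 0.168 for Sc5d and 0.36 for Idi1. The methods' t-test did not call Sc5d or Idi1. Under both scalings the calls were Dhcr7, Stard4 and Fads2 higher and Sc5d lower, 3 to 1. In the same pair all 8 microglia and macrophage markers were higher (median 3.89 log2), all 8 fibroblast markers were lower (-3.03), 9 of 10 myelinating oligodendrocyte markers were lower (-0.81), and 6 of 7 hypoxia and glycolysis genes were higher (1.33). Their part in the 3 calls was not tested.

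In cervical and thoracic progenitors most EAE minus naive differences were positive, but no member was called. Of 30 genes, 27 had a positive difference in cervical (median 0.39, all probe sets 0.07) and 25 in thoracic cultures (median 0.23, all probe sets 0.01), where limma called 0% and 0% of all probe sets, the methods' t-test called no member, and 0 and 1 members had an unadjusted p under 0.05. That level was reached by 1865 of 17302 probe sets tested in cervical and 1115 of 17676 in thoracic cultures. Dhcr7 had the largest difference of the members in both regions. In cervical cultures its EAE signals were 1757, 1843 and 2099 and its naive signals 1339, 1837 and 241, so that naive replicate 3 alone stood low. In thoracic cultures its EAE signals were 1511, 1726 and 1586 and its naive signals 661, 1674 and 399, so that naive replicate 2 stood with the EAE arrays and the other naive arrays below. The differences were 1.14 ± 0.72, adjusted p = 0.536 and 1.06 ± 0.48, adjusted p = 0.771. Without thoracic naive replicate 2, 8 members were called, all higher in EAE: Acat2, Fdft1, Tm7sf2, Dhcr7, Stard4, Elovl6, Fads1 and Fads2. The share of all probe sets called in that run is not given. The array left out had the lowest mean log2 fibroblast marker level of its group, 5.35, where the highest was 12.35. Thoracic EAE arrays had 8.51 to 9.95. The part of fibroblast content in these 8 calls was not tested.

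**Figure D4:**
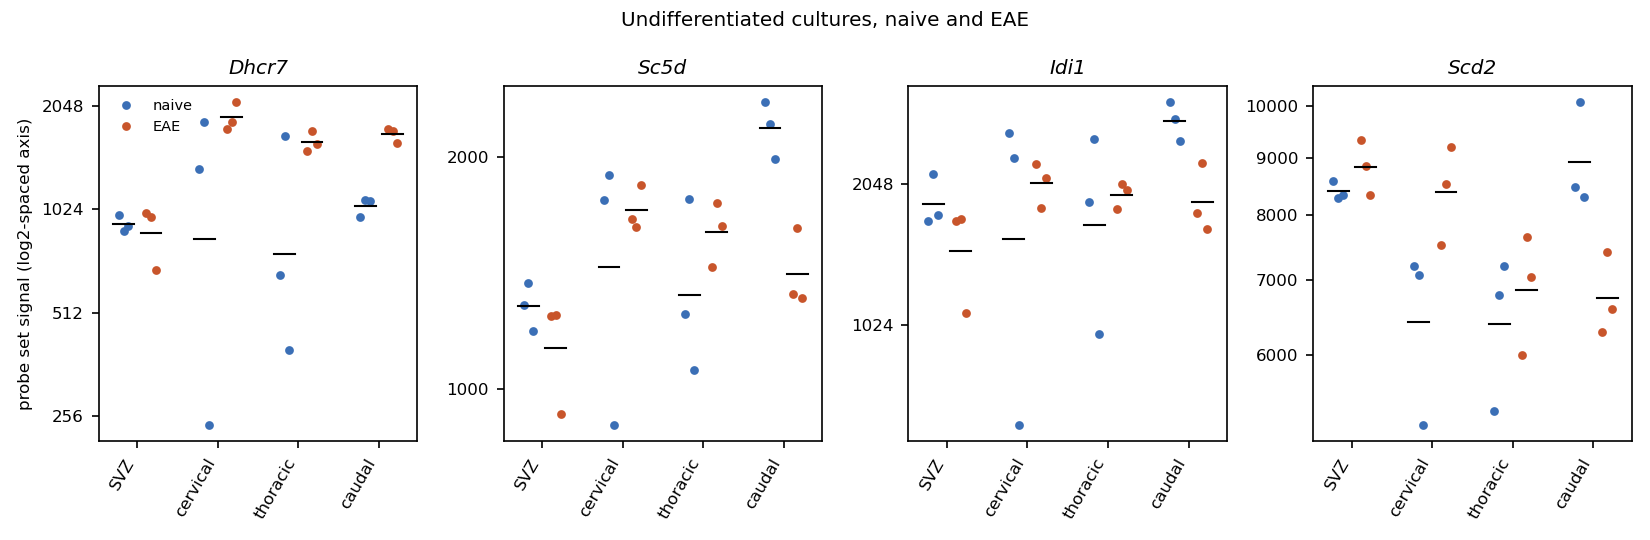
Signals of Dhcr7, Sc5d, Idi1 and Scd2 in undifferentiated cultures by region; the y axis is log2-spaced, points are arrays, blue is naive and orange EAE, and black lines are means of log2 signals. In caudal cultures the groups do not overlap for any of the 4 genes, with Dhcr7 higher and the other 3 lower in EAE, whereas naive cervical and thoracic arrays scatter widely for Dhcr7, from 241 to 1837 and from 399 to 1674.

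Naive cord arrays were spread widely in the mean level of the sterol branch, and fibroblast markers differed between the same arrays. In undifferentiated naive cervical cultures the mean log2 level of the 11 sterol branch genes was 10.53, 10.68 and 9.28 for replicates 1 to 3, and that of the 8 fibroblast markers was 8.64, 5.71 and 12.01. In thoracic ones the sterol branch stood at 10.01, 10.64 and 9.81 and the fibroblast markers at 12.21, 5.35 and 12.35. The 3 naive arrays with the highest fibroblast marker levels, cervical replicate 3 and thoracic replicates 1 and 3, thus had the lowest sterol branch levels of the undifferentiated naive cord arrays. After differentiation the lowest naive cord array was thoracic replicate 3, with a sterol branch level of 9.66 and a fibroblast level of 11.95. Ebp, a sterol branch gene, did not follow this order: its signals were 412, 326 and 433 in undifferentiated naive cervical and 369, 429 and 458 in thoracic cultures, with replicate 3 highest in both. Other lists varied too: in undifferentiated naive cervical cultures myelinating oligodendrocyte markers ran from 9.16 to 11.61 and cycling markers from 6.08 to 10.22. Differentiated thoracic EAE cultures had fibroblast levels of 10.55 to 10.90 and sterol branch levels of 10.59 to 10.91. The part of fibroblasts or of other cells in these values was not tested. In undifferentiated SVZ cultures no fibroblast marker passed the signal filter.

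**Figure D5:**
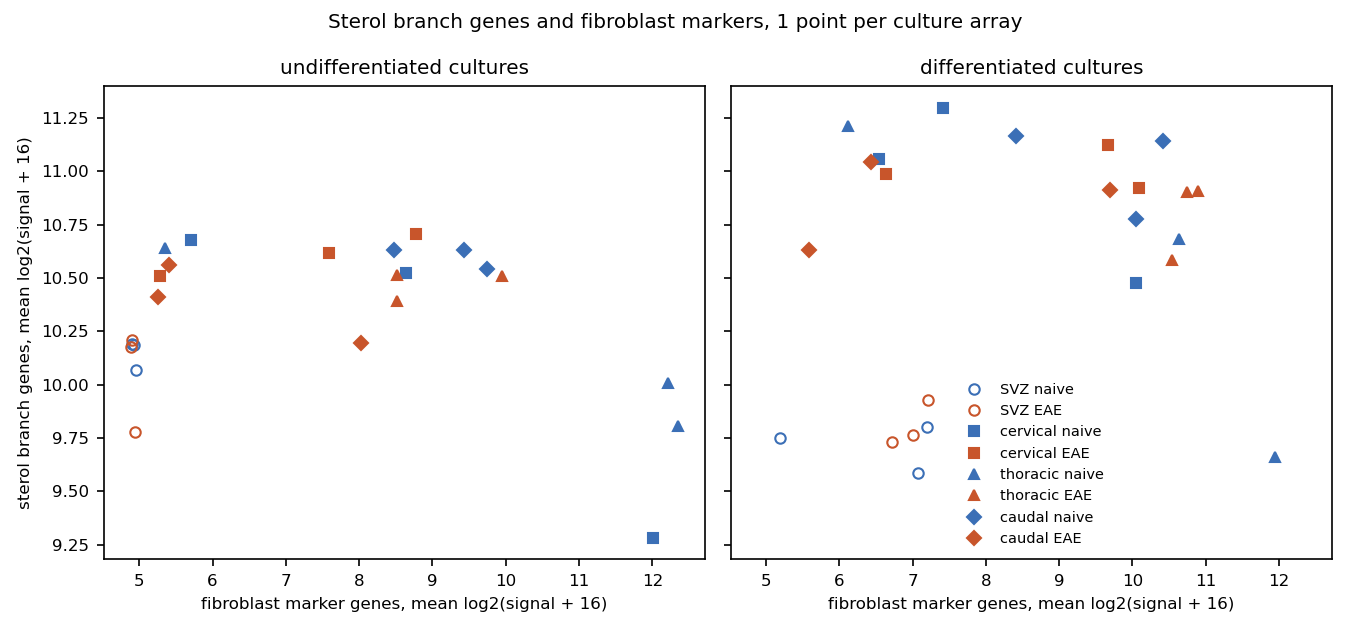
Mean log2(signal + 16) of the 11 sterol branch genes against that of the 8 fibroblast markers, 1 point per culture array, by region (symbol) and disease state (blue naive, orange EAE). Among naive cord arrays, those furthest right (fibroblast levels of 11.95 to 12.35) lie lowest, at sterol branch levels of 9.28 to 10.01.

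Averaged over the 4 regions, limma called no member in undifferentiated cultures, where 2.19% of all probe sets were higher and 4.04% lower (6.23% in either direction). It called none in differentiated cultures either, where 0.605% were higher and 0.174% lower (0.779% in either direction). In these means 4 and 1 members had an unadjusted p under 0.05, as had 5665 of 19286 and 2867 of 19520 probe sets tested. Dhcr7 (0.70 ± 0.25, adjusted p = 0.0828) and Fads2 (0.49 ± 0.21, adjusted p = 0.138) had the largest undifferentiated means, and Ebp the smallest adjusted p (-0.26 ± 0.09, adjusted p = 0.0766). Without the 2 poorly correlated arrays of that fit, Dhcr7 (0.62) and Fads2 (0.42) were called, with adjusted p of 6.34e-05 and 0.00026. The caudal effect differed from the mean of the other 3 regions for 1 gene, Scd2 (-0.59 ± 0.16, adjusted p = 0.048), with 2 of 30 differences positive and a median of -0.36 against -0.12 for all probe sets, of which 4.01% were lower and 0.461% higher (4.47% in either direction). Scd2 signals in caudal progenitors were 8474, 10088 and 8306 in naive and 6289.7, 7408 and 6597 in EAE cultures, whereas in cervical ones they were 7195, 7076 and 5189.5 and 7518, 8529 and 9192. This call was lost whichever replicate number was left out and under 5 other settings. For Dhcr7, called in caudal cultures, the regional difference was -0.02 ± 0.58, adjusted p = 0.991, and its sign turned under 4 settings.

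In differentiated cultures and in the biopsies limma called no member in any EAE pair, nor did the methods' t-test. Of all probe sets, 0% were called for SVZ, 0.133% for cervical (0.127% higher and 0.00577% lower), 0% for thoracic and 0.89% for caudal cultures (0.333% higher and 0.557% lower) and 0.0151% for biopsies. An unadjusted p under 0.05 was reached by 5 members in SVZ, 1 in thoracic and 0 in cervical and caudal cultures and in biopsies. Among all probe sets tested it was reached by 3242 of 17539 in SVZ and 688 of 17345 in cervical cultures. Thoracic cultures gave 1044 of 17084, caudal cultures 1545 of 16522 and biopsies 743 of 19837. The largest differences were those of Scd in SVZ (0.61 ± 0.27, adjusted p = 0.284), Fads2 in thoracic (-0.86 ± 0.21, adjusted p = 0.598) and Scd in caudal cultures (-0.58 ± 0.31, adjusted p = 0.636). Differentiated caudal Scd signals were 929, 826 and 762 in naive and 1107, 306 and 493 in EAE cultures, so that EAE replicate 1 lay above all 3 naive arrays and the other EAE arrays below. Without that array Scd was called lower (-1.07). Biopsy differences of the 30 genes lay between -0.06 and 0.19 log2, with standard errors of 0.11 to 0.14. Undifferentiated SVZ cultures gave -0.33 to 0.16 log2, with 0% of all probe sets called by limma. No member was called there by limma or the methods' t-test, and none had an unadjusted p under 0.05, which 1976 of 16535 probe sets tested had. 5 of 8 microglia and macrophage markers were higher in differentiated cervical and 7 of 8 in differentiated caudal EAE cultures.

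Other genes of lipid metabolism were counted on 5 further lists. In differentiated cord against SVZ cultures, fatty acid oxidation genes were lower: 5 of 11 tested in naive and 8 of 11 in EAE cultures, none higher, where 16% and 43.9% of all probe sets were lower, among them Cpt1a, which admits fatty acids to mitochondria (-1.73 and -2.07). The other lists below stand beside the shares of all probe sets in these 2 contrasts, 6.43% higher and 16% lower in naive and 17.4% higher and 43.9% lower in EAE cultures. Of the sterol efflux, storage and breakdown list, 1 was higher and 4 lower of 15 in naive and 6 and 6 of 16 in EAE cultures. Npc1, which releases sterol from lysosomes, was higher in both (1.74 and 1.91), and Cyp7b1, an oxysterol hydroxylase (-2.95 and -4.17), and Abca1, a sterol exporter (-0.99 and -1.58), were lower. Among other fatty acid genes 3 were higher and 3 lower of 20 in naive and 6 and 9 in EAE cultures. The elongases of long chains Elovl7 (3.75 and 4.76) and Elovl1 (1.60 and 1.92) were higher, and Fabp7, a brain fatty acid binding protein of glial progenitors, was lower (-3.27 and -4.73). Of the naive calls named here, Cpt1a alone held with each replicate number left out.

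Of the genes that process or partner the SREBPs, 1 was higher and 6 lower of 9 in EAE differentiated cultures (naive 1 and 3), with Erlin2, an endoplasmic reticulum protein that binds the INSIG and SCAP complex, at -1.27 and -2.32. On differentiation, 7 of 9 fell in naive and 8 in EAE cultures, none rising, where 26.8% and 34.1% of all probe sets fell. Of 9 genes that use isoprenoids, 3 were higher and 3 lower in EAE cord against SVZ differentiated cultures, and 1 and 1 in naive ones. In the EAE contrasts, Ch25h, the cholesterol hydroxylase of activated macrophages, was higher in the mean of undifferentiated (0.84 ± 0.13, adjusted p = 0.000942) and of differentiated cultures (2.13 ± 0.37, adjusted p = 0.00441). Scarb1, a lipoprotein receptor, was higher in the undifferentiated mean (0.89 ± 0.21, adjusted p = 0.0177). The differentiated Ch25h call was lost without replicate 1 or 2, at 2.13 and 1.87, and the Scarb1 call without replicate 1 or 3, at 0.82 and 0.61. All 8 microglia and macrophage markers were higher in both means, and their part in these values was not tested.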

How the data were processed

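Total RNA of 54 cultures and biopsies was hybridised to Affymetrix arrays. The authors deposited linear probe set intensities made in Affymetrix Expression Console, per the submitters' processing notes; the file headers name PLIER summaries, background correction by probes of matched GC content and global median scaling. No version or genome build is given in the sources used here. Signals were analysed as log2(signal + 16). Probe sets above a signal of 50 on at least 3 arrays of a fit entered its test. limma (version 3.58.1 in R 4.3.3) fitted each EAE pair on its own 6 arrays and each other comparison on the groups it concerns, two-sided, with Benjamini-Hochberg adjustment over all probe sets tested; the limits of 50, 0.05 and 1.2 are those of the study's design text. The fits were also run on simulated data with noise independent between arrays. Deviations shared by same-numbered arrays were not simulated, so that run does not bear on the calls reported. Of 27342 main probe sets, 19852 had 1 gene symbol, 1407 several and 6083 none, and 18580 single symbols matched RefSeq (GRCr8). Promoters came from RefSeq, assembly GRCr8, for 24 of 30 genes.

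Members, gene lists and tests were chosen with earlier results of these data known. Every member could be named by role, up to 8 called members in each direction per comparison, with further list genes limited to 3 called examples a list; members not called are given as values. Of the neural progenitor markers, 1 is not reported here, and the list was summarised without it. Same-numbered replicates deviated together (r above 0.1) in 8 of 27 EAE and naive pairs and in 26 of 36 pairs of cord regions, where r reached 0.919. Because not every pair did, the numbers were not used as pairs in the main fits. These fits thus treat same-numbered cord arrays as independent, and where they are not, standard errors and p-values of the cord contrasts may be too small. Alternatives were a pseudocount of 1, no signal filter, quantile and 75th percentile scaling, 1 fit over all 18 groups, a replicate block, the methods' t-test, the mean of all probe sets of a gene, each replicate left out and poorly correlated arrays left out. Added after the data were seen were a random block of cord arrays with the same number, stage and state, and leaving out the differentiated thoracic naive group with the poorly correlated arrays.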

Additional observations from a re-analysis of the deposited data

Results flagged for a closer look

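In 4 cases the effect of one contrast differed between regions by a test of the difference itself. The EAE effect on Scd2 in undifferentiated caudal cultures differed from its mean in the other 3 regions by -0.587 log2 (adjusted p = 0.048, limma). In naive cultures the differentiation effect in cord minus that in SVZ was 2.16 log2 for Hsd17b7 (adjusted p = 0.00551), 1.34 for Insig1 (adjusted p = 0.0232) and -1.29 for Fads1 (adjusted p = 0.0465). None of the 4 calls held with each replicate number left out in turn.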

How the results depend on the processing

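Of the 161 called member changes in 22 comparisons, none turned its direction under any of 1810 alternatives. In 1652 of these the change stayed called and in 158 it was no longer called. The log2 difference stayed that of the main fit without the signal filter, under either block and in the fit of all 18 groups. The same held for the methods' t-test. Such runs could end a call but could not turn a direction. The mean of all probe sets could change Insig1 only, as each other member has 1 probe set. With 3 arrays a group, many counts rested on single arrays. The counts of called members in this section stand without the share of all probe sets called in the same run. Whether the members stood out in those runs therefore cannot be read from them. Leaving out 1 array or replicate number gave 0 to 8 called members for thoracic and 1 to 6 for caudal undifferentiated EAE cultures, 0 to 1 for differentiated SVZ (Acaca) and caudal (Scd) EAE cultures, and 0 for the difference between the caudal EAE effect and that of the other regions, called the caudal difference here. It gave 1 to 7 for differentiation of naive and 15 to 18 of EAE cultures, and 0 to 7 for the cord and SVZ difference in differentiation. The cord and SVZ contrasts gave 0 to 2 and 11 to 15 in naive and EAE progenitors and 2 to 18 and 20 to 22 in differentiated cultures. Without poorly correlated arrays the counts were 8 in thoracic EAE, 1 in differentiated SVZ EAE, 2 in the undifferentiated EAE mean, 5 in the caudal difference and 12 between naive cord and SVZ progenitors. Where the differentiated thoracic naive group was left out too, they were 12 for naive differentiation and 17 for its cord and SVZ difference. Leaving out poorly correlated arrays alone was not run where that group was needed.

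Quantile and 75th percentile scaling shifted the median of all probe sets by over 0.1 in several comparisons, most between EAE differentiated cord and SVZ cultures, from -0.21 to 0.13 and 0.25 log2. They gave 11 and 13 called members for naive differentiation, 8 and 8 for its cord and SVZ difference and 0 and 0 for the caudal difference, and quantile normalization gave 1 (Srebf2) for the undifferentiated EAE mean. A fit of all 18 groups gave 1 for caudal EAE cultures (Ebp), 1 for the undifferentiated EAE mean (Dhcr7), 0 for the caudal difference, 12 and 13 for naive differentiation and its cord and SVZ difference, and 8 each between cord and SVZ progenitors of naive and EAE rats. The caudal difference was also 0 with a pseudocount of 1 and without the signal filter, and the methods' t-test gave 1 (Dhcr7) for caudal EAE cultures. The cause was not tested.

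Signs turned for differences not called as reported; of the turned values, Dhcr7 under both scalings and Scd2 under 75th percentile scaling, between differentiated cord and SVZ cultures of EAE rats, were called. The caudal difference of Dhcr7 was 0.24 after quantile normalization, 0.18 after 75th percentile scaling and 0.085 without poorly correlated arrays, and ranged from -0.33 to 0.45 over the replicate numbers left out. Between differentiated cord and SVZ cultures of EAE rats, quantile and 75th percentile scaling gave 0.29 and 0.42 for Dhcr7 and 0.015 and 0.29 for Scd2, and with replicates left out the values ran from -0.18 to 0.020 for Dhcr7 and from -0.0441 to 0.14 for Acaca. Between those of naive rats, Scd2 was 0.056 after 75th percentile scaling and 0.044 without the thoracic group and the poorly correlated arrays, and Stard4 ranged from -0.016 to 0.27 over replicates left out. The replicate block moved no count by over 1.5 times: it gave 15 and 22 called members between differentiated cord and SVZ cultures and 2 in caudal EAE progenitors. Between naive differentiated cord and SVZ cultures it ended the Elovl6 call (adjusted p = 0.0533), which the random block kept. The random block left every count within 1.5 times as well.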

Other observations

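Lipid genes outside the 30 were also counted between SVZ biopsies and SVZ cultures. Of 15 genes of sterol efflux, storage and breakdown tested, 4 were higher and 8 lower in biopsies than in undifferentiated cultures, and 3 and 9 against differentiated cultures. Of all probe sets, 37.3% were higher and 41.7% lower against undifferentiated and 34.4% and 39.6% against differentiated cultures. In either direction 79% and 74% were called, so calls on this list were about as frequent as over all probe sets. Cyp46a1, the hydroxylase by which neurons clear cholesterol, was higher by 3.77 ± 0.07 and 3.08 ± 0.07 log2 against undifferentiated and differentiated cultures. Abcg1, a sterol exporter, was higher by 2.32 ± 0.14 and 2.11 ± 0.14, and Soat1, which esterifies cholesterol for storage, was lower, at -2.90 ± 0.06 and -2.22 ± 0.06. Of 12 fatty acid oxidation genes, 2 were higher and 10 lower against undifferentiated cultures, and 4 and 8 of 12 against differentiated ones. All 6 neuron markers were higher in the biopsies in both comparisons, which share the 6 biopsy arrays, and their part in these values was not tested.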
